A study of Mus musculus with 9 samples.

Results

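A set of 10 genes of the glutathione transferase families were followed in kidney RNA of mice given angiotensin II (AngII): Gsta1, Gsta2, Gsta3 and Gsta4 of the alpha class, Gstm1 of the mu class, Gstp1 of the pi class, Gstt1 of the theta class, Gstk1 of the kappa class, and the membrane-bound Mgst1 and Mgst3. They were taken by gene symbol, 10 of 32593 rows of the deposited table, and were picked with results of these same libraries known, so their values are a description. Each of 3 groups had 3 kidney libraries, and every group received AngII. The AngII group was Tmemfl/fl and had no Cre. The CDH16KO-AngII group was CDH16 Cre+/Tmemfl/fl, which adds a Cre driven by Cdh16, the gene of a tubule cell cadherin. The GRPR-AngII group was CDH16 Cre+/GRPRfl/fl, with that Cre and another floxed gene. No group lacked AngII, and no GRPR-floxed group without Cre was compared, so Cre and a deletion cannot be told apart against AngII. The labels do not say whether the libraries came from separate animals, so the spread behind each p-value may be partly technical.

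Glutathione transferases join the tripeptide glutathione to electrophiles such as lipid peroxidation products, quinones and drug metabolites, so that the conjugate can be exported and, in the kidney, trimmed to a mercapturate. The soluble alpha, mu, pi and theta enzymes are dimers of the cytosol, the kappa enzyme sits in mitochondria and peroxisomes, and the microsomal enzymes are membrane proteins that can also reduce lipid hydroperoxides. Many are induced through NRF2, a transcription factor that binds antioxidant response elements, and the proximal tubule is rich in alpha-class enzymes.

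Totals were between 40731748 and 60449117 counts per library, and CPM values below are counts divided by library totals that the TMM method of edgeR had scaled. The labels do not spell out Tmem. STING appears in the series title, and Sting1, its gene (older symbol Tmem173), had 4.62, 1.77 and 5.33 CPM in AngII and 2.15, 2.24 and 2.04 CPM in CDH16KO-AngII. These ranges overlapped, and no row carried the symbol Grpr, so these values check neither deletion. The 15 proximal tubule markers, none of them at 0 in all libraries, summed to 41490.4 to 44113.8 CPM in AngII, 31946 to 42077 CPM in CDH16KO-AngII and 40846 to 57994 CPM in GRPR-AngII. Libraries also stood apart at Nnt, a mitochondrial enzyme that supplies NADPH for glutathione reduction. The second of 2 overlapping Nnt models on chromosome 13 held 5396, 4690 and 0 counts in the AngII libraries 1 to 3, 1213, 2158 and 0 in CDH16KO-AngII, and 0, 940 and 0 in GRPR-AngII. It was at 0 in 4 of 9 libraries, in each group at least once. The first model held 378, 205 and 3000 counts in AngII, 2345, 2750 and 3513 in CDH16KO-AngII, and 3478, 3810 and 3313 in GRPR-AngII. AngII libraries 1 and 2 thus stood apart from every Cre-positive library there, and comparisons with AngII also hold this difference.

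Gsta1 and Gsta2 share so much sequence that their reads may be divided arbitrarily, which sets how their values can be read. At 95% identity or more, Gsta2 covered 99.4% of the Gsta1 transcript, and the predicted neighbours Gm3776 and Gm10639 covered 99.9% and 100% of it. The coding sequences of Gsta1 and Gsta2 differed at 14 of 669 aligned bases, and 196 bases in a row were identical. Of those differences 6 lie in coding bases 578 to 667, counted from the first base of the start codon, and are shown because only reads over such bases tell the genes apart. Capitals mark the differing bases, which from Gsta1 to Gsta2 are G597T, A622T, C640G, C656T, A664T and C667T.
Gsta1: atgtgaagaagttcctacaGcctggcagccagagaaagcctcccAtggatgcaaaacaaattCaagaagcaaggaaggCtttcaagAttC
Gsta2: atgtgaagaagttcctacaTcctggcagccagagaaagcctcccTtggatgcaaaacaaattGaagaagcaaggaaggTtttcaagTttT
Gsta3 and Gsta4 were further apart, with 76.2% and 66.5% of aligned coding bases identical to Gsta1. Gsta1 (ENSMUSG00000074183, chr9:78230656-78242684, plus strand, GRCm38), Gsta2 (ENSMUSG00000057933, chr9:78331018-78355788, minus strand) and Gsta4 (ENSMUSG00000032348, chr9:78182774-78209349, plus strand) lie in one cluster, and Gsta3 (ENSMUSG00000025934, chr1:21240589-21265661, plus strand) lies elsewhere.

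Compared per length in FPKM, which divides counts by gene length and depth, Gstm1 was the most abundant of the 10 in the AngII group at 394 ± 30.8 (SD, n = 3). Gsta2 followed at 274 ± 14.7, Gstp1 at 143 ± 32.4, Mgst3 at 117 ± 1.27 and Gstt1 at 77.6 ± 4.18 FPKM. Lower down stood Gstk1 at 36.4 ± 5.33, Mgst1 at 32.003 ± 2.80, Gsta4 at 23.6 ± 2.04, Gsta3 at 14.3 ± 3.62 and Gsta1 at 12.9 ± 1.54 FPKM. This order depends on the gene lengths the authors used. Without length, Gsta3 averaged 73.0 ± 19.6 CPM in AngII, above Gsta4 at 35.1 ± 2.93 CPM. The libraries of Gstp1 and Mgst3, of Gstk1 and Mgst1, and of Gsta3 and Gsta1 overlapped, so these neighbours in the order could not be ranked. Mgst3 came before Gstp1 in CDH16KO-AngII, again with overlapping libraries.

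**Figure D1:**
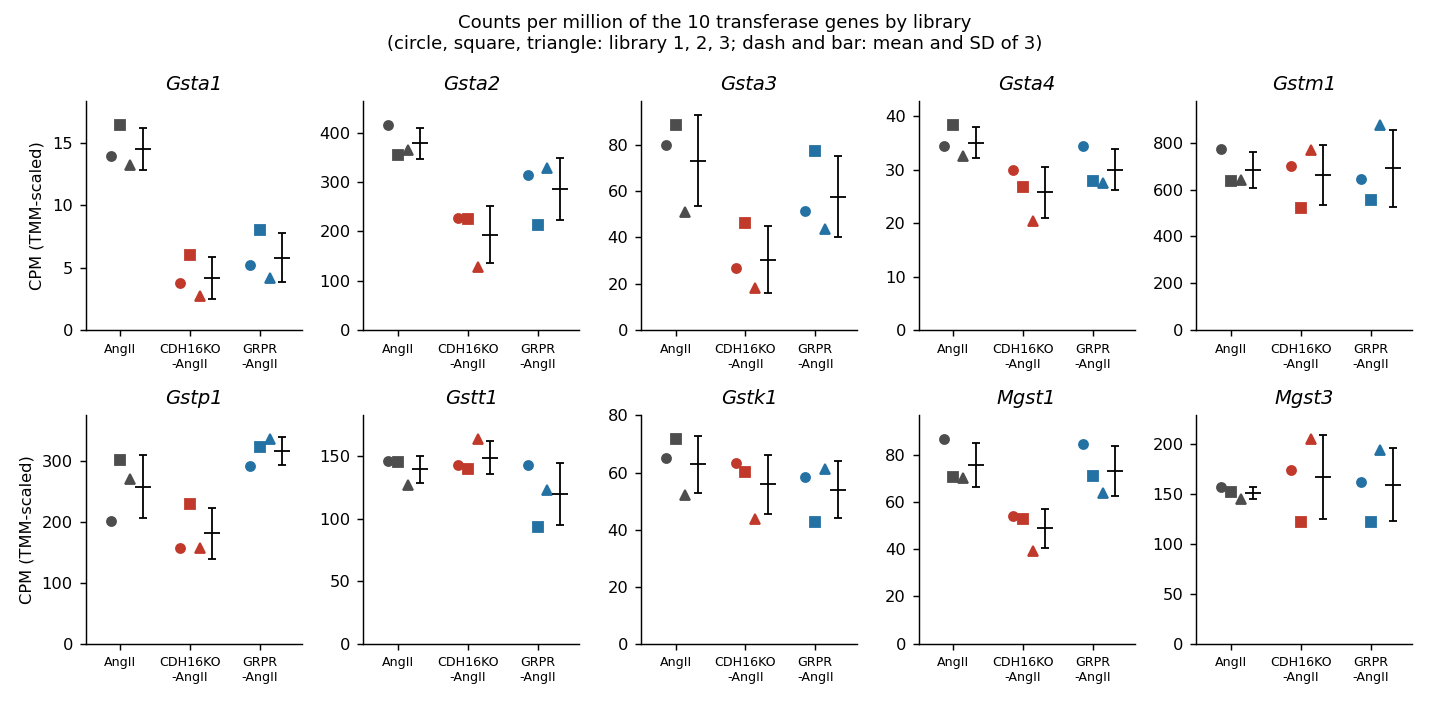
CPM of each gene (vertical axis, from 0) in the 9 libraries, grouped by genotype, with the mean and SD of 3 libraries. All Gsta1 values of the Cre-positive libraries, 2.68 to 7.98 CPM, sit under the AngII values of 13.2 to 16.4 CPM, and Gstm1 overlaps between all groups.

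Gsta1, a transferase active on lipid peroxidation aldehydes and on steroid substrates, was at 13.95, 16.4 and 13.2 CPM in the AngII libraries. It was at 3.73, 6.003 and 2.68 CPM in CDH16KO-AngII and at 5.21, 7.98 and 4.16 CPM in GRPR-AngII. Every Cre-positive library, whichever allele it carried, lay below every AngII library, and the 2 Cre-positive groups overlapped each other. The mean was 4.14 ± 1.70 in CDH16KO-AngII against 14.5 ± 1.68 CPM in AngII, a log2 fold change of -1.81 (SE 0.32) that missed the threshold in edgeR's quasi-likelihood test (adjusted p = 0.0857). GRPR-AngII against AngII gave -1.32 (SE 0.32, edgeR adjusted p = 0.602), and GRPR-AngII against CDH16KO-AngII gave 0.48 (adjusted p = 0.932). The comparisons with AngII share its libraries. Gsta1 in CDH16KO-AngII passed the threshold under DESeq2, under a replicate block and without CDH16KO-AngII library 2, with adjusted p-values from 9.8e-06 to 0.322 over 20 alternatives.

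Gsta2, the most abundant alpha gene in these libraries, was at 415, 356 and 366 CPM in AngII. It was at 228, 226 and 127 CPM in CDH16KO-AngII and at 314, 214 and 329 CPM in GRPR-AngII. No Cre-positive library reached the AngII range, with CDH16KO-AngII library 3 the lowest and GRPR-AngII library 2 inside the CDH16KO-AngII range. The log2 fold change against AngII was -0.97 (SE 0.24, edgeR adjusted p = 0.215) for CDH16KO-AngII and -0.41 (SE 0.24, adjusted p = 0.747) for GRPR-AngII. Between the Cre-positive groups it was 0.56 (SE 0.24, adjusted p = 0.748). Summing both genes removes the question of how reads were divided between these 2, but not between them and Gm3776 or Gm10639. Their summed level was 429, 372 and 379 CPM in AngII, 231, 232 and 130 CPM in CDH16KO-AngII, and 319, 222 and 333 CPM in GRPR-AngII. The sum was a factor of 1.99 lower in CDH16KO-AngII than in AngII (log2 fold change -0.99, SE 0.24, edgeR adjusted p = 0.197) and a factor of 1.35 lower in GRPR-AngII (log2 fold change -0.43, adjusted p = 0.735). DESeq2 called the first of these (adjusted p = 0.00444), and without CDH16KO-AngII library 3 it was -0.77.

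Gsta1 made up 3.25%, 4.40% and 3.48% of the counts of Gsta1 and Gsta2 together in the AngII libraries. Its share was 1.61%, 2.59% and 2.06% among the CDH16KO-AngII libraries and 1.63%, 3.60% and 1.25% among those of GRPR-AngII. All CDH16KO-AngII shares lay below the AngII shares, and GRPR-AngII library 2 lay among the AngII values. The predicted genes Gm3776 and Gm10639, looked up after their match to Gsta1 was seen, had lower means as well. Gm3776 averaged 4.86 ± 2.18 CPM in AngII, 1.30 ± 0.735 CPM in CDH16KO-AngII and 2.46 ± 0.565 CPM in GRPR-AngII. Gm10639 averaged 20.0 ± 4.74, 7.67 ± 4.74 and 9.25 ± 1.99 CPM in the same order. Neither passed the threshold in CDH16KO-AngII against AngII (edgeR adjusted p = 0.213 and 0.288), and joining both to the sum of Gsta1 and Gsta2 left that comparison at -1.02.

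Gsta3, the alpha gene outside the chromosome 9 cluster, was at 79.8, 88.4 and 50.9 CPM in AngII. It was at 26.9, 46.3 and 18.0 CPM in CDH16KO-AngII and at 51.5, 77.3 and 43.8 CPM in GRPR-AngII. The highest CDH16KO-AngII library, library 2, was just under the lowest AngII library, and GRPR-AngII overlapped both other groups. The log2 fold change in CDH16KO-AngII against AngII was -1.26 (SE 0.34, edgeR adjusted p = 0.280), with a range of -1.70 without CDH16KO-AngII library 2 to -0.996 without library 3. It passed the threshold under DESeq2 and under a replicate block, with adjusted p-values from 0.0128 to 0.736 over 20 alternatives. It was -0.34 in GRPR-AngII against AngII (adjusted p = 0.820) and 0.92 between the Cre-positive groups (adjusted p = 0.626). In each group the libraries with no count for the second Nnt model were the lowest for Gsta1 and for Gsta3, and the part of the difference at Nnt in their values was not tested. A predicted gene, Gm28836, overlaps Gsta3 on the opposite strand, and no source used here says whether counting used strand.

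Gsta4, which prefers the peroxidation product 4-hydroxynonenal, was at 34.4, 38.3 and 32.6 CPM in AngII. It was at 29.95, 26.8 and 20.4 CPM in CDH16KO-AngII and at 34.5, 27.99 and 27.6 CPM in GRPR-AngII. CDH16KO-AngII lay wholly below AngII, by the narrowest margin of the alpha genes in proportion to their levels, and GRPR-AngII overlapped it. The log2 fold change against AngII was -0.45 (SE 0.16, edgeR adjusted p = 0.491) for CDH16KO-AngII and -0.23 (adjusted p = 0.778) for GRPR-AngII.

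**Figure D2:**
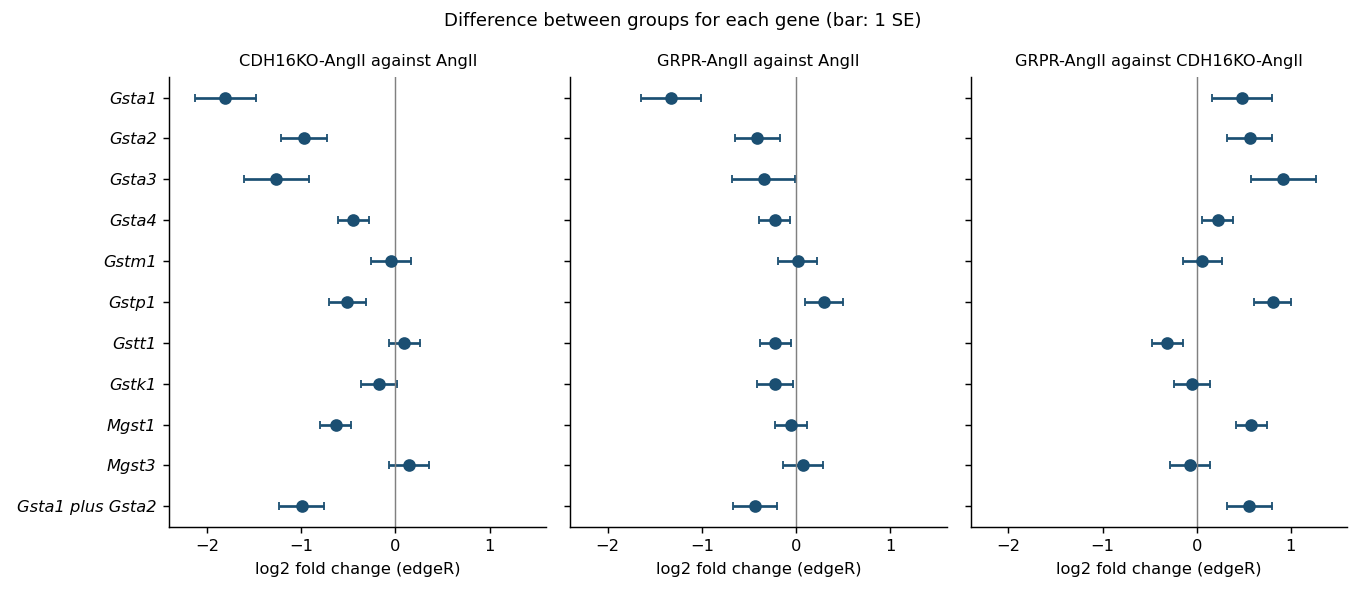
Log2 fold change of each gene and of the summed Gsta1 and Gsta2 count (horizontal axis, edgeR, bars of 1 SE) in the 3 comparisons. Gsta1 is the leftmost point against AngII in both Cre-positive groups, at -1.81 and -1.32, and Gstm1 and Mgst3 lie within 1 SE of 0 in all 3 panels.

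Gstm1 (ENSMUSG00000058135, chr3:108012255-108017973, minus strand), the principal mu enzyme, was at 772, 637 and 639 CPM in AngII, 699, 521 and 768 CPM in CDH16KO-AngII, and 644, 555 and 874 CPM in GRPR-AngII. All groups overlapped. The log2 fold change against AngII was -0.04 (SE 0.21, edgeR adjusted p = 0.953) for CDH16KO-AngII and 0.02 (SE 0.21, adjusted p = 0.987) for GRPR-AngII, and the sign of both turned when single libraries were left out, that of GRPR-AngII also under library-total scaling (-0.07). A pseudogene, Gstm2-ps1, noted after values were seen, matched 51.0% of the Gstm1 transcript at 95% identity or more but held only 8.27 to 11.9 CPM on average per group.

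Gstp1 (ENSMUSG00000060803, chr19:4035407-4037985, minus strand), the pi enzyme, also restrains the stress kinase JNK. It was at 201, 303 and 271 CPM in AngII, 158, 229 and 157 CPM in CDH16KO-AngII, and 292, 323 and 336 CPM in GRPR-AngII. Every GRPR-AngII library lay above every CDH16KO-AngII library, and the AngII libraries spanned the gap. The log2 fold change between the Cre-positive groups was 0.81 (SE 0.20, edgeR adjusted p = 0.229), and DESeq2 called it (adjusted p = 0.00851). Against AngII it was -0.51 (adjusted p = 0.535) in CDH16KO-AngII and 0.30 (adjusted p = 0.761) in GRPR-AngII.

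The neighbouring Gstp2 shared 621 of 633 coding bases with Gstp1, so reads of this pair may also be divided arbitrarily. The first 90 coding bases, shown because they hold 6 of the 12 differences, carry A6G, A9G, G31A, T32G, G35C and A57C from Gstp1 to Gstp2, in capitals.
Gstp1: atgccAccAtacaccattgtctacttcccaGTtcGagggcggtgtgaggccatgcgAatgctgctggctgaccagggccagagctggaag
Gstp2: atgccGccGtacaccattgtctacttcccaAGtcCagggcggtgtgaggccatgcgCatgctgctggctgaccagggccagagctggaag
Gstp2 averaged 56.0 ± 10.2 CPM in AngII, 44.4 ± 3.11 CPM in CDH16KO-AngII and 73.9 ± 15.7 CPM in GRPR-AngII, the same order of groups as Gstp1. Its GRPR-AngII libraries too lay above all CDH16KO-AngII libraries (log2 fold change 0.74, SE 0.18, edgeR adjusted p = 0.237), and DESeq2 called it (adjusted p = 0.0232). The pseudogene Gstp-ps, which matched 76.9% of Gstp1 and was looked at after values were seen, gave 0.58 in that comparison (adjusted p = 0.289).

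Gstt1 (ENSMUSG00000001663, chr10:75783813-75798584, minus strand), the theta enzyme that acts on small halogenated compounds, was at 146, 145 and 127 CPM in AngII, 143, 139 and 163 CPM in CDH16KO-AngII, and 143, 93.1 and 123.03 CPM in GRPR-AngII. GRPR-AngII library 2 was the lowest, and the groups overlapped. Its log2 fold changes against AngII were 0.09 (SE 0.17, edgeR adjusted p = 0.867) and -0.22 (SE 0.17, adjusted p = 0.785). Gstk1 (ENSMUSG00000029864, chr6:42245935-42250441, plus strand), the mitochondrial and peroxisomal enzyme, was at 65.1, 71.7 and 52.0 CPM in AngII, 63.4, 60.2 and 43.9 CPM in CDH16KO-AngII, and 58.3, 42.5 and 61.1 CPM in GRPR-AngII. Its groups overlapped too, with log2 fold changes against AngII of -0.17 (SE 0.19, adjusted p = 0.793) and -0.22 (SE 0.19, adjusted p = 0.805).

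The 2 microsomal genes differed from each other. Mgst1 (ENSMUSG00000008540, chr6:138140316-138156755, plus strand), whose enzyme protects membranes from lipid hydroperoxides, was at 86.6, 70.6 and 70.2 CPM in AngII, 54.2, 53.0 and 39.3 CPM in CDH16KO-AngII, and 84.6, 70.8 and 63.6 CPM in GRPR-AngII. The CDH16KO-AngII libraries lay below all libraries of both other groups, which overlapped each other. The log2 fold change was -0.64 (SE 0.17, edgeR adjusted p = 0.267) against AngII, and GRPR-AngII against CDH16KO-AngII gave 0.58 (SE 0.17, adjusted p = 0.360). DESeq2 called the first (adjusted p = 0.0435). Mgst3 (ENSMUSG00000026688, chr1:167371966-167393841, minus strand), a glutathione-dependent peroxidase, was at 157, 152 and 144 CPM in AngII, 174, 122 and 205 CPM in CDH16KO-AngII, and 162, 122 and 194 CPM in GRPR-AngII. The Cre-positive libraries lay on both sides of the AngII range, and the log2 fold changes against AngII were 0.15 (SE 0.21, adjusted p = 0.842) and 0.08 (SE 0.21, adjusted p = 0.945), the latter turning to -0.01 under library-total scaling.

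Over the 10 genes, 8 log2 fold changes were negative in CDH16KO-AngII against AngII, with a median of -0.48, beside a median of 0.01 and 48.1% negative over all 12507 genes tested. None of the 10 was called by edgeR, where 0.168% of all genes were. Of the 10, 6 had an unadjusted p under 0.05, beside 8.45% of all genes, and DESeq2 called Gsta1, Gsta2, Gsta3 and Mgst1, beside 1.68% of all genes. For 5 of them (the alpha genes and Mgst1) the CDH16KO-AngII range was wholly under that of AngII, as in 5.5% of all genes, and for none was it wholly above, as in 6.65%. In GRPR-AngII against AngII, 7 were negative with a median of -0.22, beside 51.0% negative and a median of -0.01 over all genes. There edgeR called none of the 10 and 0% of all genes (843, or 6.74%, had an unadjusted p under 0.05, and DESeq2 called 45, or 0.36%). Of the 10, Gsta1 had an unadjusted p under 0.05 and was the 1 called by DESeq2. Gsta1 and Gsta2 lay below without overlap, against 7.2% of all genes, and none lay above, against 6.85%. In GRPR-AngII against CDH16KO-AngII, 7 were positive and 3 negative with a median of 0.35, beside 52.6% negative and a median of -0.01 over all genes. None was called by edgeR (0.144% of all genes). An unadjusted p under 0.05 was found for 4 (6.24% of all genes), and DESeq2 called Gstp1 (1.4% of all genes). Gstp1 and Mgst1 lay above without overlap, against 4.66% of all genes, and none lay below, against 5.3%. These shares of all genes are background for a list that was picked with results known, and fewer cells of a type and less RNA per cell cannot be told apart in whole kidney.

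The 10 genes were also set against their own sum. Their summed FPKM came to 1125 ± 16.3 for AngII, 892 ± 37.3 for CDH16KO-AngII and 1012 ± 90.7 for GRPR-AngII. The alpha class gave 29.7%, 28.1% and 28.8% of it in the AngII libraries. It gave 20.2%, 22.9% and 12.0% among the CDH16KO-AngII libraries and 24.7%, 21.9% and 21.6% among those of GRPR-AngII. All Cre-positive libraries held a smaller alpha share than the AngII libraries, and CDH16KO-AngII library 3 the smallest. The share of Gstm1 averaged 35.0%, 41.7% and 37.1% in the same order, and that of Mgst3 averaged 10.4%, 14.1% and 11.5%. No test was made on these shares, which depend on the gene lengths behind FPKM.

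**Figure D3:**
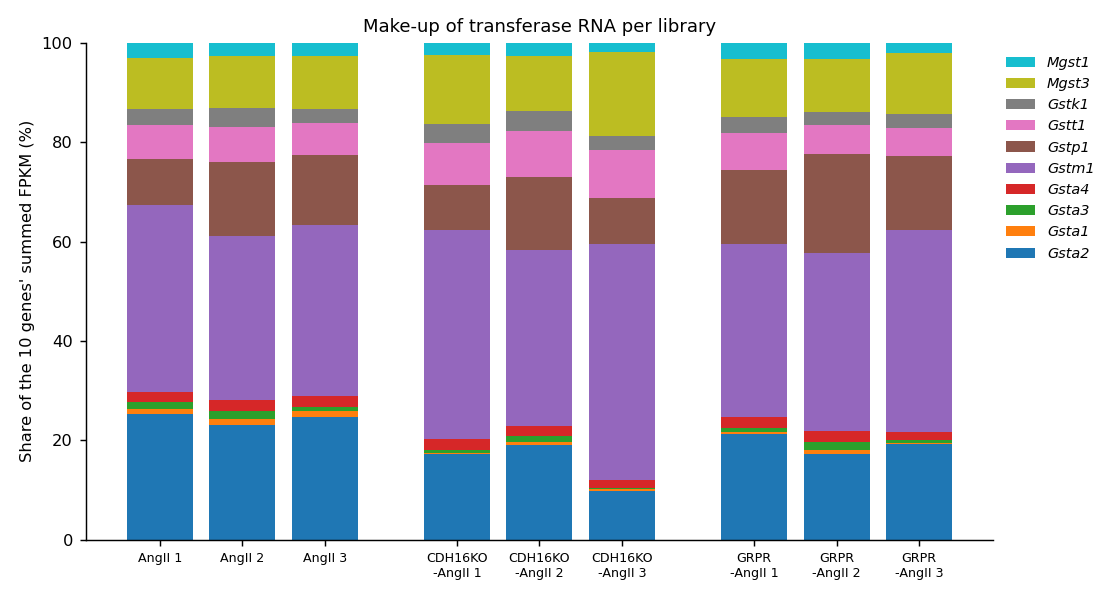
Share of the summed FPKM of the 10 genes (vertical axis, percent) in each library, stacked by gene. The 4 alpha genes at the bottom fill 28.1% to 29.7% of each AngII bar, and 12.0% of the bar of CDH16KO-AngII library 3.

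Single libraries carried much of the spread. CDH16KO-AngII library 3 was the lowest of its group for 7 of the 10 genes and the highest for Gstm1, Gstt1 and Mgst3, and AngII library 3 was the lowest of its group for 7. Mitochondria-coded transcripts made up 26.4% of the counts of CDH16KO-AngII library 3 and 16.1% to 23.4% in the other CDH16KO-AngII libraries, against 17.2% to 21.5% in AngII and 19.1% to 24.6% in GRPR-AngII. The proximal tubule marker sum was lowest in CDH16KO-AngII libraries 1 and 3, and Gsta1 and Gsta2 together per 1000 CPM of those markers came to 9.30 ± 0.909 CPM for AngII, 5.54 ± 1.68 CPM for CDH16KO-AngII and 5.93 ± 0.628 CPM for GRPR-AngII. Both Cre-positive groups lay below AngII on that scale in all libraries, but the most abundant markers dominate such a sum, and a higher sum lowers the ratio. Taken singly, 12 of 15 markers were negative in CDH16KO-AngII against AngII (median -0.18, with 48.1% of all genes negative). In GRPR-AngII against AngII 6 of 15 were (median 0.09, with 51.0% of all genes negative). The part of tubule content in the transferase values was not tested. The 4 liver markers (Alb, Apoa1, Serpina1a and Ttr) summed to 99.6 to 131 CPM in AngII, 201 to 301 CPM in CDH16KO-AngII and 99.5 to 303 CPM in GRPR-AngII, and their part in the values was not tested.

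**Figure D4:**
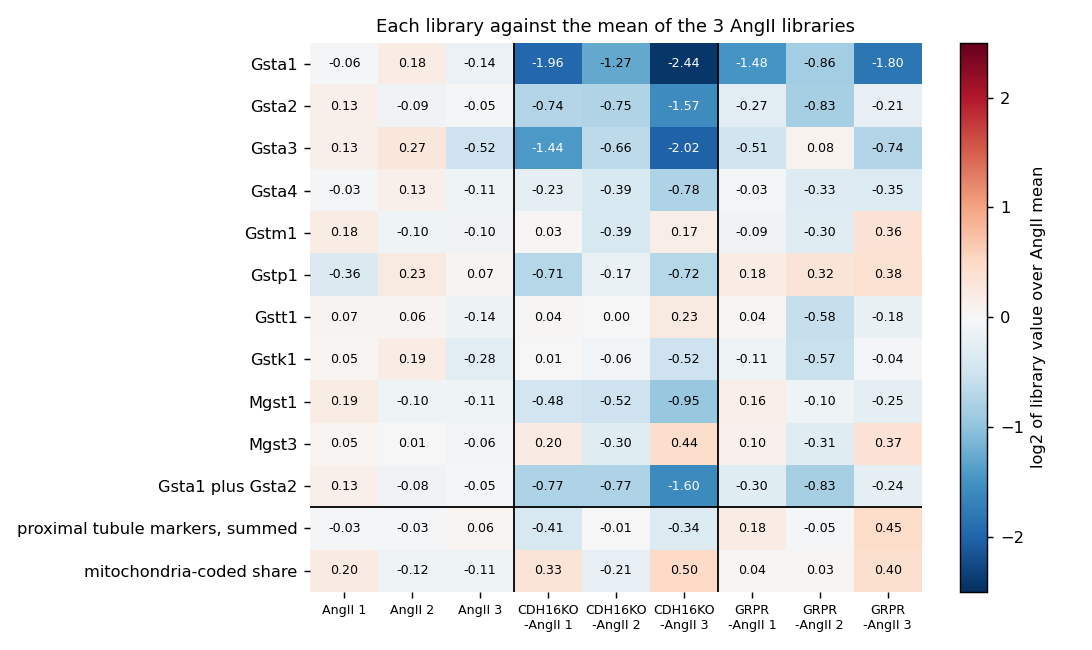
Log2 of each library's value over the mean of the AngII libraries for the 10 genes, the summed Gsta1 and Gsta2 count, the summed proximal tubule markers and the mitochondria-coded share (rows), by library (columns). Gsta1 reaches -2.44 in CDH16KO-AngII library 3, where Mgst3 is at 0.44 and the marker sum at -0.34.

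Across the 9 libraries, which share group differences and depth, log2 CPM of Gsta2 followed Gsta4 (Pearson r = 0.87) and Mgst1 (r = 0.85), Gsta1 followed Gsta3 (r = 0.85), and Gstm1 followed Mgst3 (r = 0.89). Gsta3 and Mgst3 ran opposite (r = -0.63), as did Gstp1 and Gstt1 (r = -0.64). The genes outside the families with the pattern most like the summed Gsta1 and Gsta2 count were Gjb1, a gap junction protein (r = 0.945), P2rx4 (r = 0.939), C1rl (r = 0.939), Dnajc12 (r = 0.934) and Etnppl (r = 0.929). Gjb1 was at 58.8, 47.2 and 45.3 CPM in AngII and at 28.3, 26.0 and 20.9 CPM in CDH16KO-AngII, with no overlap (log2 fold change -1.01, edgeR adjusted p = 0.05001). In that comparison P2rx4 was at -0.26, C1rl at -0.70, Dnajc12 at -0.80 and Etnppl at -0.86 (edgeR adjusted p = 0.623, 0.289, 0.277 and 0.426). All were picked for likeness to the sum over these same libraries, so lower values in CDH16KO-AngII follow from the choice.

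The start regions of these genes were read for 2 motifs, since several had differences of 1 sign. RefSeq promoter windows on GRCm38.p6, from 250 bases before to 50 after the start, were found for 9 of the 10 genes (not Gsta4) in 11 windows. The RefSeq start of Gsta2 lies inside the deposited gene bounds (chr9:78331018-78355788, minus strand), not at their outer end. Its window therefore does not cover the start of that longer gene model. The Gsta1 and Gsta2 windows were 80.3% identical, and the 150 bases before each start are shown with bases that differ or do not align in capitals.
Gsta1, chr9:78230519-78230668, plus strand: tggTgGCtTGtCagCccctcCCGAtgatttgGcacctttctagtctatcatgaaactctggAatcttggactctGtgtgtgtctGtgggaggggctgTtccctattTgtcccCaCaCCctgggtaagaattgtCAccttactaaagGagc
Gsta2, chr9:78347146-78347295, minus strand: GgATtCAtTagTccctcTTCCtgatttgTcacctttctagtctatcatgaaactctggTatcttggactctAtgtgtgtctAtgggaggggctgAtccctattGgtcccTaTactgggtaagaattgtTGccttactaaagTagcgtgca
The core of the antioxidant response element, TGACNNNGC on either strand, occurred in 2 of the 11 windows, beside 12.4% of 32851 windows of all genes. These were the Gsta3 window and 1 of the 2 Mgst1 windows. The AP-1 motif TGACTCA occurred in 1 of the 11 windows, that of Gstp1, beside 5.20% of all windows. The 150 bases before those starts are printed with the match in capitals, which begins 121 bases before the start of Gsta3, 56 before that of Mgst1 and 74 before that of Gstp1, the last 2 as the reverse complement.
Gsta3, chr1:21240435-21240584, plus strand: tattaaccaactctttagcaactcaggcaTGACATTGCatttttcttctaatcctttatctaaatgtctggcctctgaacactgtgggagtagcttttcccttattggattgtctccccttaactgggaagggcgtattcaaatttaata
Mgst1, chr6:138140377-138140526, plus strand: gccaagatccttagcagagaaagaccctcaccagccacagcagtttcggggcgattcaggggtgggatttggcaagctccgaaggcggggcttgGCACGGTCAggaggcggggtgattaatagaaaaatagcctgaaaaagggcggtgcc
Gstp1, chr19:4037913-4038062, minus strand: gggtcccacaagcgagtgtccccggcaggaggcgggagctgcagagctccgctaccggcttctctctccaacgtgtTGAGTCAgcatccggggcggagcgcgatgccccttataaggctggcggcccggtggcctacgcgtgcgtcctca
Gsta1 and Gsta2 held neither motif in this window, which says nothing of sites further away. Among the 10 nearest tested genes outside the alpha cluster on chromosome 9, the median log2 fold change in CDH16KO-AngII against AngII was -0.07. It was -0.10 around Gsta3, -0.05 around Mgst1 and 0.16 around Gstp1. Of each 10, in that order, 8, 7, 5 and 2 were negative, beside 48.1% of all genes. In GRPR-AngII against AngII the medians were -0.15, -0.32, -0.05 and 0.20, and 7, 9, 6 and 2 were negative, beside 51.0% of all genes.

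Of 24 further transferases and related membrane proteins listed, 22 were in the table and 14 were expressed enough to be tested. In CDH16KO-AngII against AngII edgeR called none, 3 had an unadjusted p under 0.05 (8.45% of all genes) and DESeq2 called 1, Ltc4s (1.68% of all genes). Of the 14, 11 were negative, and the median was -0.29, beside 48.1% negative and a median of 0.01 over all genes. Gstm4 (log2 fold change -0.46), Gstt2 (-0.43) and Gstz1 (-0.34), the last an isomerase of tyrosine breakdown, lay below AngII without overlap, as did 5.5% of all genes. Gstm2 (0.07), Gstm5 (-0.07), Gstm6 (-0.24), Gstm7 (-0.39), Gstp2 (-0.34), Gstt3 (-0.22), Gsto1 (-0.39), Ptges (-0.46), Alox5ap (0.00) and Eef1g (-0.20) overlapped. Ltc4s, the synthase of leukotriene C4, was at 4.58, 3.67 and 7.65 CPM in AngII and 9.39, 9.43 and 12.3 CPM in CDH16KO-AngII. These lay all above AngII, as in 6.65% of all genes (log2 fold change 0.97, SE 0.27, edgeR adjusted p = 0.286). In GRPR-AngII against AngII the 14 split 7 to 7 with a median of 0.03, beside 51.0% negative and a median of -0.01 over all genes.

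The genes that make, recycle and export glutathione were compared by list, and edgeR called none in any of the 3 comparisons. In CDH16KO-AngII against AngII, 7, 3, 3, 2 and 2 genes of the lists below, in their order, had an unadjusted p under 0.05, beside 8.45% of all genes, and DESeq2, which called 1.68% of all genes, called Glrx (edgeR log2 fold change 0.78), Oplah (-0.57), Kyat1 (0.92) and Nqo1; the first 3 are named because DESeq2 called them, after values were seen. By sign, glutathione synthesis, cycling and breakdown had 21 of 28 tested rows negative (median -0.27), peroxidases and thiol enzymes 9 of 12 (-0.19), conjugate export and mercapturate enzymes 6 of 11 (-0.05), NRF2 regulators and targets 13 of 17 (-0.24), and xenobiotic receptors and proximal tubule factors 7 of 10 (-0.24). Over all genes 48.1% were negative, with a median of 0.01. In GRPR-AngII against AngII, 1, 1, 1, 2 and 3 had an unadjusted p under 0.05 (6.74% of all genes), and the medians were -0.01, 0.10, 0.01, -0.17 and -0.12 in the same order. In GRPR-AngII against CDH16KO-AngII, 6, 3, 2, 4 and 1 had an unadjusted p under 0.05 (6.24% of all genes), and the DESeq2 calls included Glrx, Oplah, Txnrd2 and Nqo1. For synthesis, the rate-limiting ligase subunit Gclc was at -0.64 in CDH16KO-AngII and -0.15 in GRPR-AngII, its partner Gclm at -0.41 and -0.09, Gss at -0.01 and 0.15, and the reductase Gsr at -0.78 and -0.38. Ggt1, the brush border enzyme that begins mercapturate formation, was at -0.01 and 0.27. The peroxidase genes Gpx1 (-0.42 and 0.18), Gpx3 (0.05 and -0.06) and Gpx4 (-0.06 and 0.30) gave no called difference, and the conjugate pumps Abcc2 (-0.60 and -0.37) and Abcc4 (-0.49 and 0.05) did not either.

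Among NRF2-linked genes, the quinone reductase Nqo1 averaged 62.6 CPM in AngII, 30.8 CPM in CDH16KO-AngII and 62.7 CPM in GRPR-AngII. Its log2 fold change against AngII was -1.02 (SE 0.21, edgeR adjusted p = 0.116) in CDH16KO-AngII and 0.00 in GRPR-AngII. Nfe2l2, which encodes NRF2, was at -0.33 and -0.42, its inhibitor Keap1 at -0.02 and 0.02, Hmox1 at -0.68 and 0.54 (-0.195 without GRPR-AngII library 2), Ephx1 at 0.05 and -0.40, and Ugdh at -0.66 and -0.35. The proximal tubule factor Hnf4a (0.06 and -0.10) was not called either. Smaller differences of these genes, such as those of Gss, Ggt1, Gpx3 and Keap1 in CDH16KO-AngII, also turned sign when single libraries were left out.

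**Figure D5:**
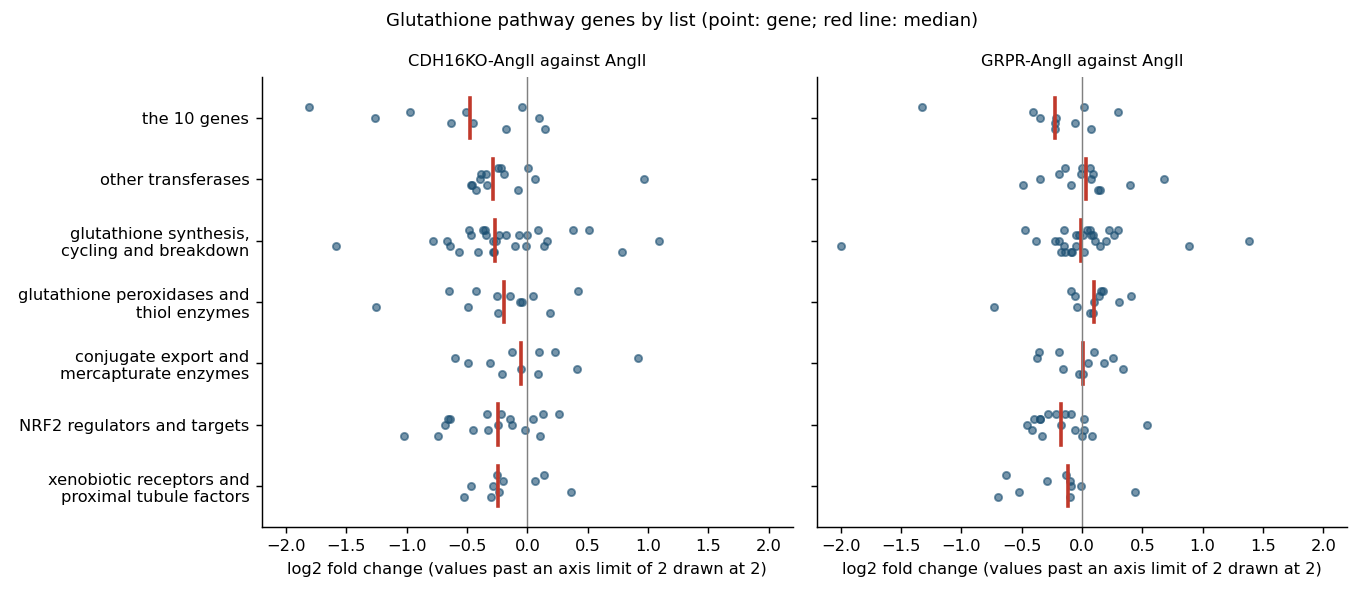
Log2 fold change (horizontal axis) of every tested gene of 7 lists in each Cre-positive group against AngII, 1 point per table row, with the list's median as a red line. The 10 transferases have medians of -0.48 and -0.22, and 1 Nnt row beyond -2 in the right panel is drawn at the limit.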

How the data were processed

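RNA-seq was done on 9 mouse kidney libraries in 3 groups of 3, made with the SMARTER mRNA-Seq kit per the labels' protocols. The deposited table gives whole-number read counts and FPKM per gene, both made by the authors. The builds GRCm38 and mm10 are from the submitters' processing notes, and no source used here names the aligner, counter or use of strand.

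Counts were tested with edgeR 4.0.16 (R 4.3.3), quasi-likelihood, TMM scaling, 1 coefficient per group over all 9 libraries, for the 12507 of 32593 genes that reached an FPKM of 1 in 3 or more libraries, and adjusted by Benjamini-Hochberg over all of them (threshold 0.05). All 10 members passed this filter. The plain edgeR, DESeq2 and limma fits of 3 groups were tested on simulated data for CDH16KO-AngII against AngII, limma on CPM in place of FPKM. The other alternatives were not tested that way. Alternatives were DESeq2 1.42.0, limma 3.58.1 on log2(FPKM + 1) and log2(FPKM + 0.1), other scalings and filters, fits of 2 groups, a replicate block and leaving out each library; joining Gm3776 and Gm10639 was added after seeing the data. Totals were 40731748 to 60449117 counts. Replicates differed by more than sampling noise (lowest chi-square per gene 74.2). Shared sequence came from BLAST+ 2.17.0 on GENCODE M21 transcripts, promoters from RefSeq.

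The members and gene lists were chosen with earlier results of these data known. Genes named were the members, the tested further transferases, 18 fixed pathway genes (not all are reported here), any called list gene, and the 5 genes of most similar pattern to the summed Gsta1 and Gsta2 count.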

Additional observations from a re-analysis of the deposited data

How the results depend on the processing

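No value reversed past the threshold. With DESeq2, the genes called were 210 in CDH16KO-AngII against AngII, 45 in GRPR-AngII against AngII and 175 in GRPR-AngII against CDH16KO-AngII, against 21, 0 and 18 with edgeR, and 843 genes had an unadjusted p under 0.05 in the second. Among the members DESeq2 called 4, 1 and 1 in the same order against 0, and called the summed Gsta1 and Gsta2 difference in the first (log2 fold change -0.998, adjusted p = 0.00444). A fit of only GRPR-AngII and CDH16KO-AngII called 8. Leaving out 1 library at a time gave 0 to 32, 0 to 2 and 0 to 38 genes called, and 0 to 1 members called in the first comparison (Gsta1, without CDH16KO-AngII library 2). The lowest counts came without AngII library 1 in the first comparison and without GRPR-AngII library 1 in the third; the highest came without CDH16KO-AngII library 1 in both.

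The libraries share only a number by the rule used (every same-numbered correlation over 0.1): these ran from -0.13 to 0.32, and the 6 between libraries numbered 2 or 3 from 0.14 to 0.32, while those of different number ran from -0.35 to 0.23. Not every library correlated best with its own number. With a replicate block 2 members were called in CDH16KO-AngII against AngII (Gsta1 and Gsta3), and 26, 0 and 13 genes were called over the 3 comparisons. The summed Gsta1 and Gsta2 difference with the block was -1.01 (adjusted p = 0.156). All 600 member values moved by less than 1 SD, taken from the spread of libraries within groups, under the alternatives. Leaving out 1 of 3 libraries can hardly move a group mean that far, so this limit says little about stability. The signs of small differences, such as those of Gstm1 and Mgst3, turned under some alternatives. The scalings tried moved the median of all genes by at most 0.08 on the log2 scale, and in GRPR-AngII against CDH16KO-AngII the genes called higher were 7 of 18 under TMM, 5 of 15 under library totals and 9 of 20 under DESeq2 size factors. Depth and the number of libraries were not varied beyond leaving out 1 library; the rarest member, Gsta1, had at least 126 counts in every library.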
